A study of Dugesia japonica with 18 samples.

Results

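Head fragments of the planarian flatworm Dugesia japonica were compared with tail fragments at days 5, 7 and 10, to describe which differences between the ends of the body were present in fragments at late days. The comparison used 6 of the 18 mRNA libraries of the study: head at days 5, 7 and 10, and tail at days 5, 7 and 10. Each fragment had a single library a day, and the libraries were paired by day. The 6 head and tail libraries of days 0, 1 and 3 were fitted in the same way and served to say which late differences were also there early. All animals were of 1 species with no genetic change or agent named in the labels, and each library came from a pool of 10 to 20 animals cut into head, trunk and tail. The labels do not say what day 0 stands for, or whether a library at a late day held newly grown tissue, so "head" and "tail" below are the labels' names of the fragments.

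A planarian rebuilds missing parts from a population of stem cells called neoblasts, which express piwi genes. Which end is rebuilt depends on Wnt signalling through beta-catenin: Wnt ligands and Hox genes mark the posterior, while secreted Wnt inhibitors such as notum and the sFRPs (secreted frizzled-related proteins) and nou-darake genes, which keep brain tissue within the head, mark the anterior. In planarians many of these position genes are expressed in body-wall muscle, and their domains are set anew in a regenerating fragment.

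The 12 head and tail libraries held between 17547716 and 21229980 counts. Levels are given as TMM-scaled CPM, counts scaled to a common library size and corrected for library composition, and the TMM factors ran between 1.18 and 1.51 in head libraries and between 0.691 and 0.879 in tail libraries. A single unannotated unigene, TRINITY_DN155747_c0_g1, took 26.9, 32.2 and 31.7% of the counts of the head libraries of days 5, 7 and 10, against 49.1, 46.9 and 41.2% in the tail libraries. Its late difference did not pass edgeR's quasi-likelihood test (log2 difference -1.24 ± 0.23, SE; adjusted p = 0.0734). The call depended on the fit: DESeq2 called it lower (adjusted p = 0.00138), as did the legacy fit of edgeR, a filter at 5 CPM, the fits without the day block, of 12 libraries and with trunk, and library totals (log2 difference -0.60). With plain library totals as scaling, the median log2 difference over all unigenes tested moved to 0.63, and with totals without that unigene to 0.27, so all differences below are relative to the TMM scaling. Relative to the median of all unigenes, no list median described below moved by more than 0.04 under these scalings. A unigene is an assembled transcript cluster, named here by the protein description deposited with it; reads of paralogs or near-identical copies may have been split among them, which makes values of single family members uncertain.

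Of 22361 unigenes tested, 1888 were higher in head than in tail fragments at days 5 to 10 (8.44%), and 3584 were lower (16.0%), by edgeR's quasi-likelihood test at an adjusted p of 0.05. All late counts of gene list members below are to be read beside these shares. The median log2 difference was 0.85 among the higher and -0.78 among the lower unigenes, and -0.01 over all unigenes tested. A difference of at least 2-fold was reached by 770 of the higher and 1205 of the lower unigenes. The split depends on the scaling: with library totals 11373 were higher and 894 lower, and with totals without the most abundant unigene 5013 were higher and 1996 lower. Since days stand in for replicates, the p-values measure the deviation of fragments by day, not the spread between replicate pools. Without the day block 2712 unigenes were called, and leaving out day 7 left 2396 calls, day 10 left 3650 and day 5 left 5505. In whole fragments, fewer cells of a type and less RNA per cell cannot be told apart.

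**Figure D1:**
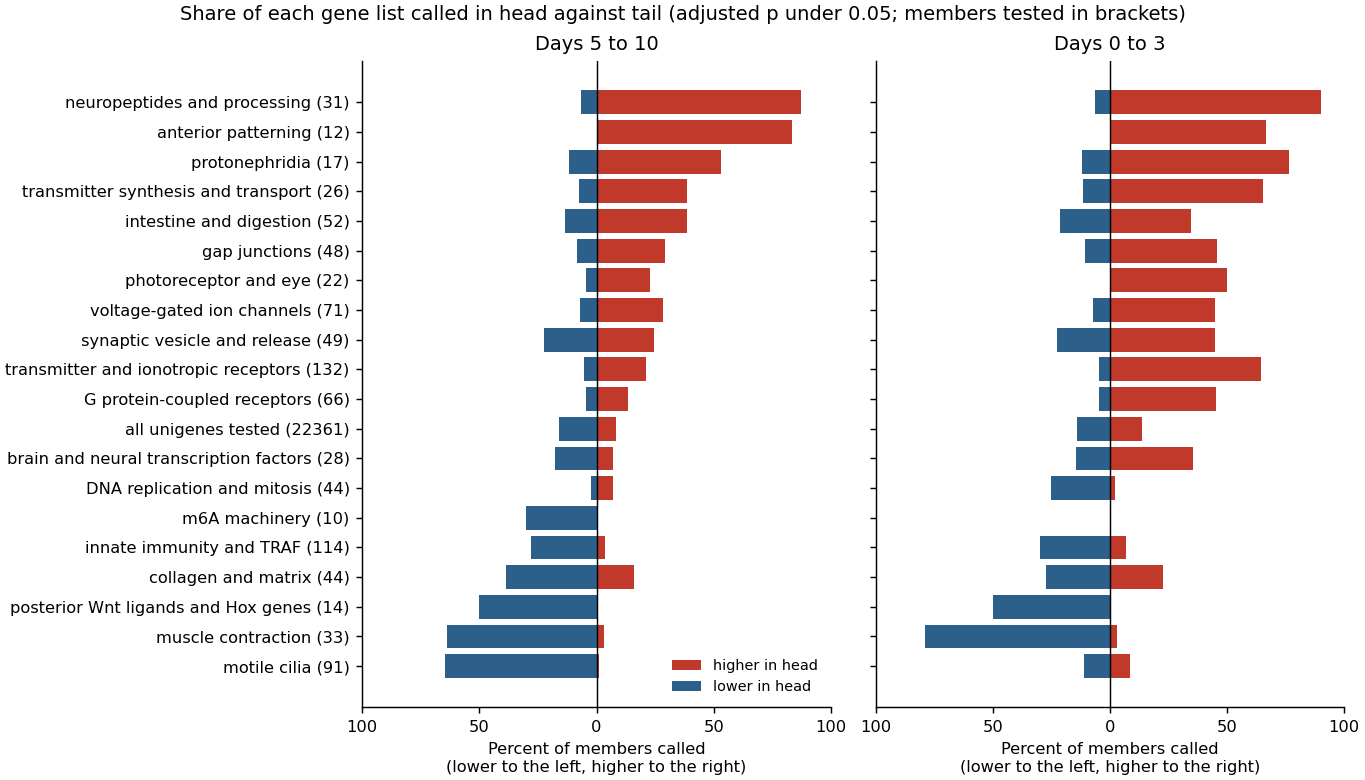
Percent of the members of each gene list (rows) called higher or lower in head than in tail fragments at days 5 to 10 and at days 0 to 3 (horizontal axes, percent of members), with the row of all unigenes tested for comparison; the number of members tested stands in brackets. Neuropeptides and anterior patterning genes lie on the higher side in both periods, muscle and posterior genes on the lower side in both, and motile cilia genes have 59 of 91 members lower late and 10 of 91 early.

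Of 14 posterior Wnt ligands and Hox genes, 7 were lower in head than in tail fragments late and 0 were higher, with a median log2 difference of -1.02, against -0.01 over all unigenes. The Wnt ligand wnt11-2 (TRINITY_DN26781_c0_g1) had 0.442, 0.598 and 1.07 CPM in head fragments of days 5, 7 and 10, against 4.26, 4.03 and 5.66 CPM in tail fragments. All 3 head libraries were below all 3 tail libraries (log2 difference -2.74 ± 0.30, SE as for all log2 differences below; adjusted p = 0.000469). At days 0, 1 and 3 the same unigene had 0.041, 0.211 and 0.284 CPM in head and 21.04, 16.98 and 6.15 CPM in tail fragments. Its tail level was thus highest in the libraries of days 0 and 1, and the head libraries were lowest on those days.

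The other wnt11 ligands went the same way. wnt11-1 (TRINITY_DN4986_c0_g1) had 2.72, 4.02 and 2.71 CPM in late head fragments, against 9.67, 8.62 and 7.88 CPM in late tail fragments, and wnt11-5 (TRINITY_DN4149_c0_g1) had 17.7, 20.5 and 15.1 CPM, against 42.6, 41.5 and 33.4 CPM. Head libraries lay below tail libraries without overlap for both, by a log2 difference of -1.48 ± 0.20 (adjusted p = 0.00130) and -1.14 ± 0.10 (adjusted p = 0.000207). Among the Hox genes, which encode homeodomain factors of body position, the unigene described as php-3 (TRINITY_DN7825_c0_g2) had 3.68, 6.92 and 7.84 CPM in late head and 19.2, 21.4 and 19.4 CPM in late tail fragments. DjAbd-Ba (TRINITY_DN2826_c0_g2) had 2.06, 4.27 and 5.43 CPM in late head and 11.04, 10.6 and 13.9 CPM in late tail fragments. In both, the head libraries of days 7 and 10 were above that of day 5 but still below all tail libraries (log2 difference -1.75 ± 0.21 and -1.66 ± 0.24, adjusted p = 0.000922 and 0.00179). PLOX5-Dj (TRINITY_DN1859_c0_g2) was lower by a log2 difference of -1.61 ± 0.25 and DjAbd-Bb (TRINITY_DN6043_c0_g1) by a log2 difference of -0.95 ± 0.13 (adjusted p = 0.00252 and 0.00126). These 7 calls held without each of the days, while that of DjAbd-Bb was lost with library totals as scaling (-0.30), and wnt11-1 and wnt11-5 were not called in a fit of all 12 libraries.

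The 7 remaining posterior members were not called late. They were wnt-1 (0.57), a ligand described as Wnt-4 (0.41, adjusted p = 0.0529), wntP-3 (-0.29), DthoxE (-0.53), PLOX3-Dj (-0.35) and the unigenes described as Hox-A1 (0.18) and Hox-C9 (-1.09, adjusted p = 0.0569), all as log2 differences. wnt-1 had 1.69, 2.09 and 1.57 CPM in late head and 1.805, 0.626 and 1.21 CPM in late tail fragments, where the groups overlapped.

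The posterior difference was smaller late than early for part of these genes. Tested directly, the head-minus-tail difference of days 5 to 10 minus that of days 0 to 3 was positive for wnt11-2 (late-minus-early log2 difference 3.60 ± 0.70, adjusted p = 0.0232), php-3 (late-minus-early log2 difference 2.13 ± 0.31, adjusted p = 0.0110) and DjAbd-Ba (late-minus-early log2 difference 3.68 ± 0.59, adjusted p = 0.0339), 3 of the 14 members, against 0.259% of all unigenes with a positive call in this test. DjAbd-Ba had 0.534, 1.05 and 1.37 CPM in early head and 59.1, 40.3 and 23.96 CPM in early tail fragments. DjAbd-Bb gave no such call, with a log2 difference of -0.95 late and -0.98 early (difference 0.04 ± 0.21, adjusted p = 0.966). wnt11-1, wnt11-5 and PLOX5-Dj had positive differences that did not pass (4.61, 2.25 and 2.81, adjusted p = 0.162, 0.137 and 0.119 by edgeR). DESeq2 called 5 of the 14 members, with wnt11-1 (5.72, adjusted p = 0.0230) and wnt11-5 (2.28, adjusted p = 0.0105) among them, and edgeR called all 3 without day 3 and without a filter on low counts. Every edgeR call of this test, over all unigenes, was lost when day 7 was left out. The call of wnt11-2 was also lost without day 0, day 1 or day 10 and without the day block. That of php-3 was also lost without day 0 or day 1 and without the day block, and that of DjAbd-Ba without day 1 or day 10.

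**Figure D2:**
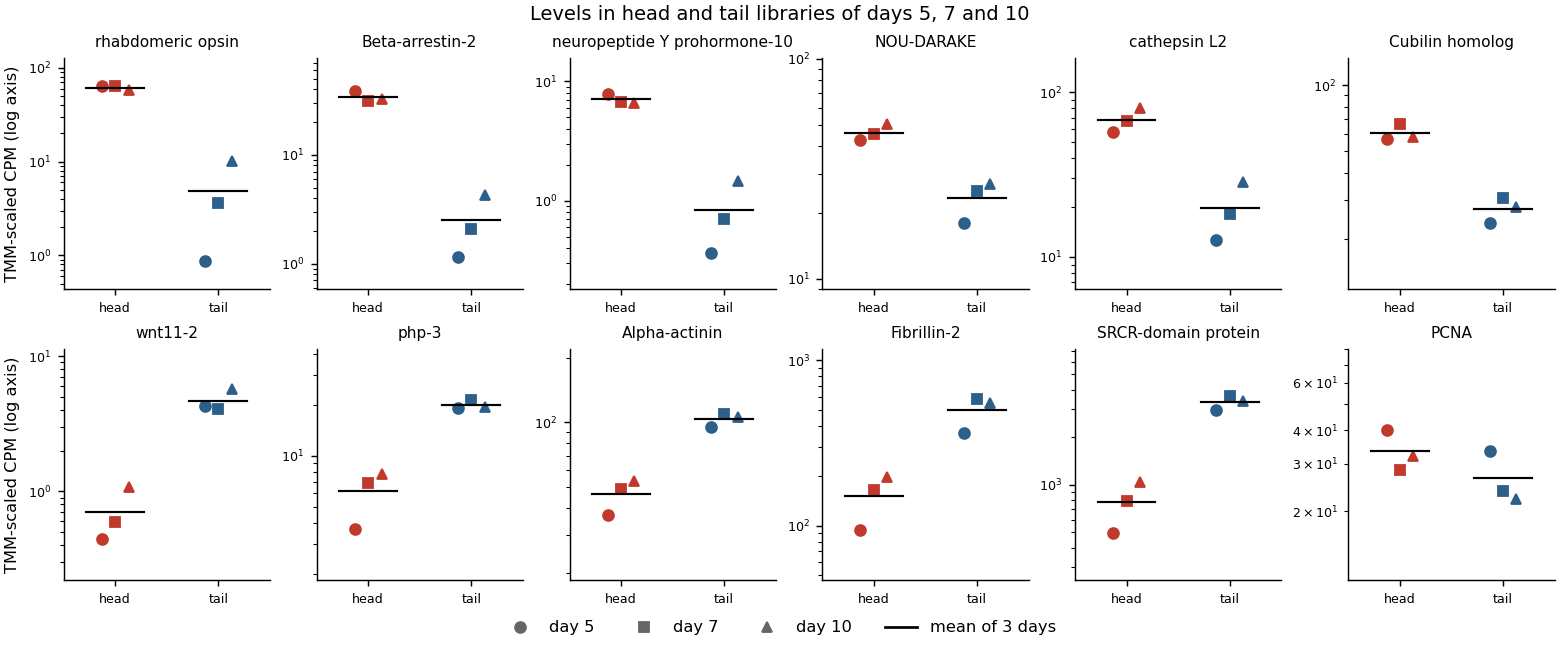
TMM-scaled CPM (log axis, with its own range in each panel) of 12 genes in each head and tail library of days 5, 7 and 10; each point is 1 library, its shape gives the day and the line is the mean of 3 days. wnt11-2 lies between 0.442 and 1.07 CPM in head and between 4.03 and 5.66 CPM in tail fragments, and nou-darake between 42.8 and 50.3 CPM in head and between 17.9 and 27.1 CPM in tail fragments.

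Genes of the anterior were higher in head fragments, by less than early. Of 12 anterior patterning members, 10 were higher late and 0 lower, with a median log2 difference of 0.65 late and 2.41 early, where 8 were called. NOU-DARAKE (TRINITY_DN5112_c1_g1), a receptor-like protein of the FGF receptor family, had 42.8, 45.5 and 50.3 CPM in late head fragments, against 17.9, 24.95 and 27.1 CPM in late tail fragments. The groups did not overlap (log2 difference 1.003 ± 0.11, adjusted p = 0.000469). Early, it had 63.6, 70.7 and 53.00 CPM in head and 2.31, 5.57 and 6.94 CPM in tail fragments, so that each late tail library was above each early one and each late head library below each early one. The relatives nou-darake like-2 (TRINITY_DN3128_c0_g1) and NDK-4 (TRINITY_DN6521_c0_g1) were higher in late head fragments by a log2 difference of 1.03 ± 0.11 and 0.65 ± 0.11 (adjusted p = 0.000453 and 0.00301).

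Among Wnt receptors, frizzled-5/8-4 (TRINITY_DN5306_c0_g1) had 32.1, 30.9 and 36.5 CPM in late head and 20.6, 22.7 and 26.3 CPM in late tail fragments (log2 difference 0.52 ± 0.10, adjusted p = 0.00634). 2 unigenes described as Frizzled-5, TRINITY_DN65439_c0_g1 and TRINITY_DN7172_c0_g1, were higher by a log2 difference of 0.48 ± 0.11 and 0.63 ± 0.11 (adjusted p = 0.0162 and 0.00492). The secreted inhibitor sFRP-A (TRINITY_DN146043_c0_g1) had 3.35, 5.17 and 5.05 CPM in late head and 2.02, 1.81 and 1.84 CPM in late tail fragments, without overlap (log2 difference 1.24 ± 0.26, adjusted p = 0.0101). sFRP-B (TRINITY_DN4865_c1_g2) was higher by a log2 difference of 0.67 ± 0.14 (adjusted p = 0.00920), while the unigene described as sFRP 3 (TRINITY_DN16957_c0_g1) was not called (log2 difference 0.11 ± 0.11, adjusted p = 0.546). A ligand described as Wnt-2b (TRINITY_DN14604_c0_g1) was higher by a log2 difference of 0.66 ± 0.14 (adjusted p = 0.0119), and Wnt5a (TRINITY_DN8726_c0_g1) was not called (log2 difference 0.39 ± 0.20, adjusted p = 0.193).

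notum (TRINITY_DN14791_c0_g1), which encodes a hydrolase that inactivates Wnt ligands, had 5.27, 4.61 and 3.82 CPM in late head fragments, against 2.67, 2.15 and 2.48 CPM in late tail fragments. Each head library was above each tail library (log2 difference 0.90 ± 0.23, adjusted p = 0.0232), but this call was lost without each of the 3 days. Early it was not called (log2 difference -0.53 ± 0.60, adjusted p = 0.582), with 3.37, 3.72 and 6.87 CPM in head and 1.402, 13.6 and 7.41 CPM in tail fragments, of which the tail library of day 1 was the highest of the 12. Without day 7, 3 of the 12 anterior members were called, 6 without day 10 and 9 without day 5; NOU-DARAKE, nou-darake like-2 and NDK-4 were called in each of these fits. A fit of all 12 libraries, with the same log2 differences but a shared estimate of the spread, called 3 of the 12.

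In the test of late against early differences, 6 of the 12 anterior members were lower late, against 1.86% of all unigenes. They were NOU-DARAKE (late-minus-early log2 difference -2.69 ± 0.37, adjusted p = 0.0191), NDK-4 (late-minus-early log2 difference -2.58 ± 0.47, adjusted p = 0.0495), frizzled-5/8-4 (late-minus-early log2 difference -2.10 ± 0.28, adjusted p = 0.00936), both Frizzled-5 unigenes (-2.06 and -2.20, adjusted p = 0.0264 and 0.00662) and sFRP-B (late-minus-early log2 difference -1.23 ± 0.22, adjusted p = 0.0197). For frizzled-5/8-4, head fragments had 32.1, 30.9 and 36.5 CPM late, against 38.8, 38.6 and 36.4 CPM at days 0, 1 and 3, and tail fragments had 20.6, 22.7 and 26.3 CPM late, against 3.79, 5.95 and 9.38 CPM early. All 6 of these calls were lost without day 7. That of NDK-4 was also lost with DESeq2 size factors as scaling, with the legacy fit of edgeR and without day 0, 1, 5 or 10. The call of NOU-DARAKE was also lost without day 1 or 10, and that of sFRP-B without day 0 or 10. TRINITY_DN65439_c0_g1 was also not called without day 0, 1 or 10, and frizzled-5/8-4 without day 1.

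**Figure D3:**
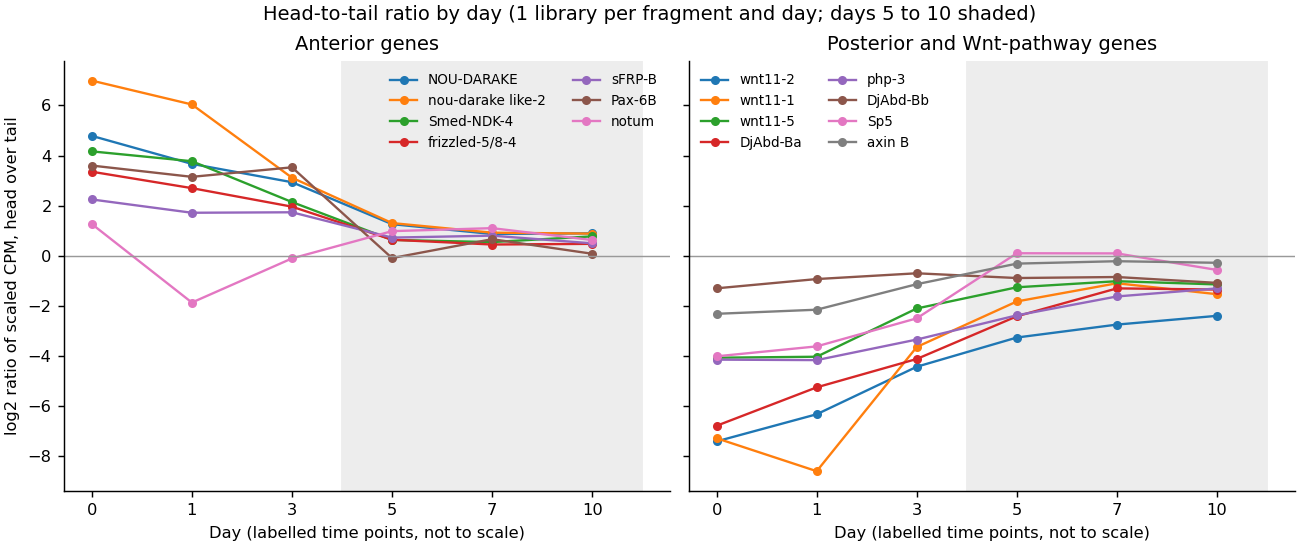
Log2 ratio of TMM-scaled CPM, head over tail (vertical axis), on each of the 6 days (horizontal axis, not to scale) for anterior genes on the left and posterior and Wnt-pathway genes on the right; each point is 1 pair of libraries and the horizontal line marks equal levels. Most genes of both panels lie nearer to the line at days 5, 7 and 10, and over the 12 anterior members the median log2 ratios were 3.27, 2.69 and 1.72 at days 0, 1 and 3 and 0.68, 0.74 and 0.63 at days 5, 7 and 10.

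Of 16 intracellular members of the Wnt pathway, 3 were lower in late head fragments (18.8%, near the 16.0% of all unigenes) and 0 higher, with a median log2 difference of -0.05. beta-catenin (TRINITY_DN3876_c0_g2), which carries the signal into the nucleus, had 32.03, 38.8 and 41.7 CPM in late head and 45.8, 67.97 and 59.8 CPM in late tail fragments (log2 difference -0.61 ± 0.10, adjusted p = 0.00241). Glycogen synthase kinase-3 beta (TRINITY_DN3910_c1_g1), part of the complex that marks beta-catenin for destruction, was lower by a log2 difference of -0.62 ± 0.08 (adjusted p = 0.000927). axis inhibition protein B (TRINITY_DN3130_c2_g1), a scaffold of that complex, had 87.1, 105 and 95.6 CPM in late head and 109, 123 and 116 CPM in late tail fragments, without overlap (log2 difference -0.27 ± 0.07, adjusted p = 0.0264). That call was lost without day 7, without day 10, without the day block, in DESeq2 and without a filter on low counts. It was also lost in the fits of 12 libraries and with trunk, and with totals without the most abundant unigene. With library totals all 3 differences turned positive (0.03, 0.02 and 0.37), under a median of 0.63 for all unigenes, and 12 members were then called higher.

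The factor Sp5 (TRINITY_DN12062_c0_g1), a target of Wnt signalling in other animals, had 9.65, 10.2 and 8.94 CPM in late head and 9.02, 9.59 and 13.3 CPM in late tail fragments, and these groups overlapped (log2 difference -0.13 ± 0.17, adjusted p = 0.626). Early it had 2.38, 2.597 and 3.65 CPM in head and 38.6, 31.99 and 20.7 CPM in tail fragments, far apart (log2 difference -3.38 ± 0.27, adjusted p = 3.47e-05). The late-minus-early difference was 3.25 ± 0.36 (adjusted p = 0.00713), with higher levels in late head and lower levels in late tail fragments. axis inhibition protein B changed in the same direction (late-minus-early log2 difference 1.60 ± 0.28, adjusted p = 0.0345), with 51.7, 43.9 and 83.02 CPM in early head and 259, 196 and 183 CPM in early tail fragments. Without day 7 neither was called, and that of axis inhibition protein B was also lost without each other day except day 3.

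Of 22 eye members, 5 were higher and 1 lower in late head fragments, with a median of 0.38, against 11 higher and 0 lower early, with a median of 0.77; without day 7, 1 was called late. Rhabdomeric opsin (TRINITY_DN127811_c0_g1), the visual pigment of planarian photoreceptors, had 63.6, 63.5 and 58.1 CPM in late head fragments, against 0.866, 3.61 and 10.2 CPM in late tail fragments. The tail level was lowest on day 5 and highest on day 10, and stayed below the head libraries. The log2 difference of 3.93 ± 0.92 did not pass edgeR's test with the day block (adjusted p = 0.106). It passed in DESeq2 (log2 difference 4.23, adjusted p = 0.000102), without the day block (log2 difference 3.63, adjusted p = 0.0230), in the fits of 12 libraries and with trunk, and without day 10 (log2 difference 4.99). Early head fragments had 131, 112 and 112 CPM of this opsin, against 0, 0.127 and 0.236 CPM in early tail fragments, and the late-minus-early difference was -5.98 (adjusted p = 0.0782 by edgeR). That difference was called by DESeq2 (-5.85, adjusted p = 0.00213), without the day block, without day 5 and without a filter on low counts.

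A unigene described as Beta-arrestin-2 (TRINITY_DN15526_c0_g1), of the family that shuts off photoactivated opsin, had 38.9, 31.2 and 32.3 CPM in late head and 1.15, 2.09 and 4.26 CPM in late tail fragments (log2 difference 3.82 ± 0.45, adjusted p = 0.00989; not called without day 7). It had no count in the 3 early tail libraries, where 3 counts correspond to between 0.190 and 0.247 CPM, and 71.8, 66.7 and 51.7 CPM in early head fragments. The second unigene of that name (TRINITY_DN7699_c1_g1) had 7.51, 9.49 and 9.67 CPM in late head and 1.01, 1.81 and 2.67 CPM in late tail fragments (log2 difference 2.31 ± 0.24, adjusted p = 0.000383). In both, the tail level was highest on day 10. The other opsin and rhodopsin unigenes of the list, the SIX6 unigene and six3-1 were not called late. six3-1 (TRINITY_DN19235_c0_g1) had 2.798, 2.65 and 3.21 CPM in late head and 1.299, 2.02 and 2.92 CPM in late tail fragments (log2 difference 0.50 ± 0.29, adjusted p = 0.253), where the groups overlapped.

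Of the Pax-6 factors, which act in eye and brain development in many animals, DjPax-6 (TRINITY_DN8427_c0_g2) had 13.7, 14.7 and 16.5 CPM in late head and 9.600, 12.3 and 10.2 CPM in late tail fragments (log2 difference 0.49 ± 0.14, adjusted p = 0.0351). The DjPax-6 call was lost without day 7, without day 10, without the day block and in DESeq2. Pax-6B (TRINITY_DN8427_c0_g1) had 2.43, 4.06 and 4.63 CPM in late head and 2.599, 2.57 and 4.39 CPM in late tail fragments, with overlap (log2 difference 0.21 ± 0.24, adjusted p = 0.579). Early it had 2.997, 3.93 and 4.55 CPM in head and 0, 0.443 and 0.394 CPM in tail fragments, and the late-minus-early difference was -3.48 ± 0.57 (adjusted p = 0.0132; lost without day 7, day 10 or day 0). Over the 28 brain and neural transcription factors, 10 were higher and 4 lower early (median 0.42). Late, 2 were higher (7.14%) and 5 lower (17.9%), near the 8.44% and 16.0% of all unigenes (median 0.06). The lower ones included soxB (TRINITY_DN14062_c0_g1; log2 difference -1.25 ± 0.10, adjusted p = 0.000137) and a unigene described as Nkx-6.1 (TRINITY_DN37462_c0_g1; log2 difference -1.15 ± 0.12, adjusted p = 0.000346), both lower by a like amount early (-1.31 and -1.04).

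Neuropeptide genes were mostly higher in head fragments. Of 31 neuropeptide prohormones and processing enzymes, 27 were higher in late head fragments and 2 lower, with a median log2 difference of 2.07. Summed over the list, head fragments had 1231, 1134 and 1142 CPM at days 5, 7 and 10, against 351, 436 and 529 CPM in tail fragments, so that the tail sum was highest on day 10. neuropeptide Y prohormone-10 (TRINITY_DN15955_c0_g1) had 7.81, 6.75 and 6.61 CPM in late head and 0.361, 0.695 and 1.46 CPM in late tail fragments (log2 difference 3.06 ± 0.37, adjusted p = 0.000865). neuropeptide Y prohormone 1 (TRINITY_DN53767_c0_g2) and prohormone-2 (TRINITY_DN172205_c0_g1) were higher by a log2 difference of 3.31 ± 0.58 and 2.97 ± 0.72 (adjusted p = 0.00649 and 0.0494). The call of prohormone-2 was lost without day 7, with DESeq2 size factors as scaling, with the legacy fit of edgeR and without a filter on low counts. The 2 lower members were the unigenes described as Neuroendocrine convertase 1 and Carboxypeptidase E, enzymes that cut prohormones; they were picked out after their values were seen. Without day 7, 17 members were called higher, and 25 without the day block. Early, 28 were higher and 2 lower, with a median of 2.68.

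Other neuronal lists were split further. Of 26 genes of transmitter synthesis and transport, 10 were higher and 2 lower late (median 0.63), against 17 and 3 early (median 1.46). tyramine beta-hydroxylase (TRINITY_DN13038_c0_g1), which makes octopamine in invertebrates, had 8.03, 7.48 and 6.69 CPM in late head and 2.09, 1.74 and 3.05 CPM in late tail fragments (log2 difference 1.69 ± 0.25, adjusted p = 0.00177). A serotonin transporter (TRINITY_DN10350_c0_g1) was higher by a log2 difference of 1.37 ± 0.21 (adjusted p = 0.00214). Of 132 transmitter and ionotropic receptors, 28 were higher and 7 lower late (median 0.41), against 85 and 6 early (median 1.12). The late shares were 21.2% higher and 5.30% lower, against 8.44% and 16.0% of all unigenes. A lower late-minus-early difference was called for 20 of them (15.2%, against 1.86% of all unigenes). The median log2 ratio of these receptors was 0.73, 0.37 and 0.19 on days 5, 7 and 10. Of 66 G protein-coupled receptors, 9 were higher (13.6%) and 3 lower (4.55%) late, against 30 and 3 early. Without the day block 8 transmitter receptors were called higher late, and 5 without day 7.

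Of 71 voltage-gated ion channels, 20 were higher and 5 lower in late head fragments (median 0.23), 5 of them higher without day 7. The calcium channel Cav1A (TRINITY_DN9437_c0_g1), described as a muscle calcium channel, was among the lower ones, with 12.1, 14.9 and 18.8 CPM in head and 42.01, 54.8 and 47.2 CPM in tail fragments (log2 difference -1.67 ± 0.13, adjusted p = 0.000137). Of 49 synaptic vesicle and release genes 12 were higher (24.5%, against 8.44% of all unigenes) and 11 lower (22.4%, against 16.0%), with a median of 0.07. Leaving out day 7 left 4 of these genes higher and 5 lower. Synaptotagmin-9 (TRINITY_DN38928_c0_g3), a calcium sensor of vesicle fusion, was lower by a log2 difference of -1.33 ± 0.17 (adjusted p = 0.000986). Of 37 axon guidance genes 12 were higher (32.4%) and 8 lower (21.6%). The number called higher was 3 without day 7 and 6 without the day block. The receptor Roundabout homolog 1 (TRINITY_DN9484_c0_g2) was higher by a log2 difference of 1.36 ± 0.25 (adjusted p = 0.00545; not called without day 7) and Semaphorin-6D (TRINITY_DN14239_c0_g1) lower by a log2 difference of -1.22 ± 0.14 (adjusted p = 0.000666).

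Of 33 muscle contraction members, 21 were lower in late head fragments and 1 higher, with a median log2 difference of -0.77, and 26 were lower and 1 higher early, with a median of -0.93. Summed over the list, late head fragments had 8928, 10532 and 9636 CPM, against 18739, 18968 and 17373 CPM in late tail fragments, where the groups were far apart. Alpha-actinin (TRINITY_DN30126_c1_g1), which anchors actin filaments, had 36.97, 49.2 and 53.3 CPM in late head and 95.5, 110.0 and 106 CPM in late tail fragments (log2 difference -1.17 ± 0.09, adjusted p = 0.000154). A myosin heavy chain (TRINITY_DN4102_c0_g5) was lower by a log2 difference of -1.10 ± 0.08 (adjusted p = 0.000113). In the late-minus-early test of edgeR 0 muscle members were called, while 6 had an unadjusted p under 0.05 and DESeq2 called 1. With library totals the list had 11 lower and 7 higher members and a median of -0.12, under a median of 0.63 for all unigenes. Planarian muscle expresses many position genes, so the posterior and anterior members above lie in a tissue whose own genes differed between the fragments; its part in their differences was not tested.

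Of 44 collagen and matrix members 7 were higher and 17 lower in late head fragments, 38.6% against 16.0% of all unigenes called lower (median -0.22, and 0.42 with library totals). A unigene described as Fibrillin-2 (TRINITY_DN63552_c0_g1), a protein of elastic fibres in vertebrates, had 93.7, 165 and 197 CPM in late head and 363, 586 and 554 CPM in late tail fragments (log2 difference -1.76 ± 0.09, adjusted p = 8.14e-05). Of 5 intermediate filament members 4 were lower, with an intermediate filament protein (TRINITY_DN25739_c0_g3) at 136, 248 and 263 CPM in late head and 446, 634 and 533 CPM in late tail fragments (log2 difference -1.36 ± 0.13, adjusted p = 0.00133).

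Motile cilia genes, which planarians use in the ciliated epidermis and in protonephridia, were for the most part lower in late head fragments. Of 91 members, 59 were lower and 1 higher late, with a median log2 difference of -0.60, against 10 lower and 8 higher early, with a median of -0.06. Summed over the list, head fragments had 2273, 3218 and 3506 CPM at days 5, 7 and 10, against 3035, 5075 and 5646 CPM in tail fragments. Both fragments were lowest on day 5, and the head library was below the tail library on each day, but the head libraries of days 7 and 10 were above the tail library of day 5. Without the day block 6 members were called lower, without day 7 37, without day 10 42 and without day 5 69. With library totals the median was 0.04, under a median of 0.63 for all unigenes, with 3 lower and 13 higher; with totals without the most abundant unigene 39 were lower and 2 higher. The late-minus-early difference was called lower for 16 of the 91 members (17.6%, against 1.86% of all unigenes), and 0 were called higher.

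forkhead box J1-5 (TRINITY_DN818_c1_g3), of the FoxJ1 family that switches on motile cilia genes in vertebrates and planarians, was picked out after its values were seen. It had 10.9, 24.7 and 28.7 CPM in late head and 19.9, 38.3 and 48.1 CPM in late tail fragments, with the head library below the tail library on each day (log2 difference -0.74 ± 0.10, adjusted p = 0.00121; lost without the day block and with library totals). Early it had 31.5, 38.1 and 27.6 CPM in head and 19.8, 22.2 and 27.7 CPM in tail fragments, a difference of the opposite sign (log2 difference 0.48 ± 0.16, adjusted p = 0.0480). The late-minus-early difference was -1.23 ± 0.21 (adjusted p = 0.0155; lost without each of days 0, 1, 7 and 10). It was 1 of 15 unigenes called in both periods with opposite signs, 12 of them lower late and higher early. A cilia- and flagella-associated protein 74 (TRINITY_DN5645_c0_g1) was another, with -0.51 ± 0.13 late and 0.46 ± 0.15 early (adjusted p = 0.0246 and 0.0460); its late call was lost without day 7, without day 10 and without the day block.

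**Figure D4:**
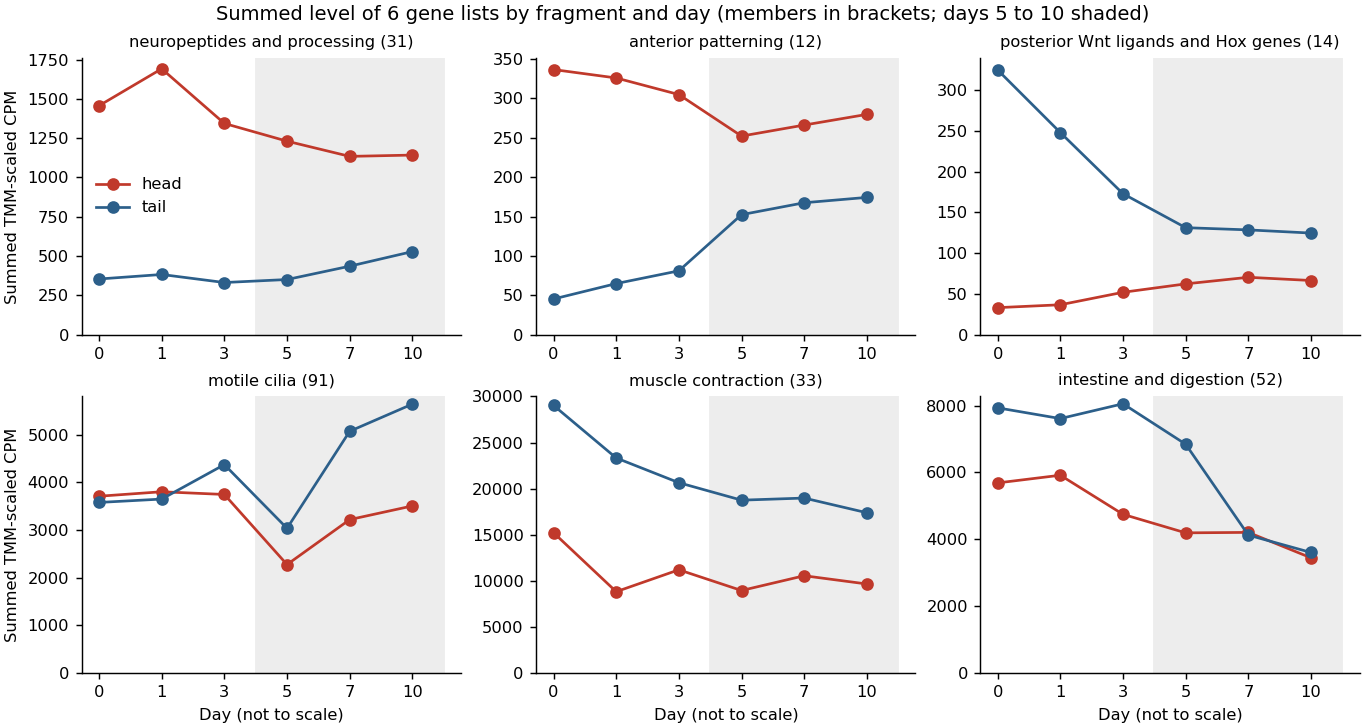
Summed TMM-scaled CPM of gene lists (vertical axis) in head and tail fragments on each of the 6 days (horizontal axis); each point is 1 library. At days 5, 7 and 10 the motile cilia sum is 2273, 3218 and 3506 CPM in head and 3035, 5075 and 5646 CPM in tail fragments, and the neuropeptide sum 1231, 1134 and 1142 CPM in head and 351, 436 and 529 CPM in tail fragments.

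Among inner organs, 20 of 52 intestine and digestion members were higher and 7 lower in late head fragments (median 0.30). Summed over the list the order was not the same: late head fragments had 4188, 4202 and 3440.1 CPM, against 6842, 4120.2 and 3600.2 CPM in late tail fragments, with tail above head on days 5 and 10. cathepsin L2 (TRINITY_DN29034_c0_g3), a lysosomal cysteine protease of the planarian gut, had 57.1, 66.7 and 80.6 CPM in late head and 12.7, 18.2 and 28.7 CPM in late tail fragments (log2 difference 1.84 ± 0.13, adjusted p = 0.000137). A trypsin-like serine protease (TRINITY_DN12785_c0_g1) went the other way, with 10.2, 9.49 and 6.12 CPM in late head and 42.2, 18.6 and 12.8 CPM in late tail fragments (log2 difference -1.38 ± 0.23, adjusted p = 0.00688; lost without the day block). Its tail level was highest on day 5. Of 17 members of protonephridia, the excretory tubules, 9 were higher and 2 lower late (median 0.43), against 13 and 2 early (median 1.45). A Cubilin homolog (TRINITY_DN5110_c1_g1), a receptor for protein uptake, had 56.96, 66.6 and 58.1 CPM in late head and 23.5, 30.7 and 27.8 CPM in late tail fragments (log2 difference 1.15 ± 0.09, adjusted p = 0.000149). Without day 7, 3 protonephridia members and 16 intestine members were called higher. The carbohydrate-binding protein lectin 1 (TRINITY_DN2732_c0_g1) had 232, 229 and 182 CPM in late head and 90.5, 76.7 and 66.3 CPM in late tail fragments (log2 difference 1.46 ± 0.08, adjusted p = 8.07e-05), in a list of 22 astacins and C-type lectins with 3 higher and 4 lower members.

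Of 17 neoblast and germ-cell RNA proteins, 5 were higher (29.4%, against 8.44% of all unigenes) and 1 lower late (median 0.19). The number called higher was 0 without day 7, 0 without day 10 and 0 without the day block. DESeq2 called 2 higher and the fit with trunk 3. DjPiwiA (TRINITY_DN2453_c0_g1) had 182, 120.5 and 132 CPM in late head and 154, 107 and 92.8 CPM in late tail fragments, where the groups overlapped and head was above tail on each day (log2 difference 0.31 ± 0.09, adjusted p = 0.0345). The DjPiwiA call was lost without day 7, without day 10, without the day block, in DESeq2 and in the fit with trunk. DjPiwiB (TRINITY_DN3080_c0_g1) and DjPiwiC (TRINITY_DN643_c0_g1) were not called (log2 difference 0.19 ± 0.08 and 0.05 ± 0.07, adjusted p = 0.108 and 0.669). The lower member was a nanos-related unigene (TRINITY_DN37375_c0_g1), nanos being a gene of germ cells, with 0.994, 0.214 and 0.038 CPM in late head and 3.46, 1.74 and 2.61 CPM in late tail fragments (log2 difference -2.76 ± 0.56, adjusted p = 0.00926).

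Of 44 DNA replication and mitosis members, 3 were higher (6.82%, near the 8.44% of all unigenes) and 1 lower (2.27%, against 16.0%) late (median 0.05). Early, 1 was higher and 11 were lower (median -0.21). PCNA (TRINITY_DN17885_c0_g1), the sliding clamp of the replication fork, had 40.1, 28.5 and 32.1 CPM in late head and 33.5, 23.8 and 22.2 CPM in late tail fragments (log2 difference 0.35 ± 0.10, adjusted p = 0.0394). The PCNA call was lost without day 7, without day 10, without the day block, in DESeq2 and in the fit with trunk. Cyclin-dependent kinase 1-A (TRINITY_DN1119_c0_g1), a kinase of the mitotic entry step, had 11.6, 13.8 and 11.5 CPM in late head and 18.7, 30.4 and 25.6 CPM in late tail fragments (log2 difference -0.99 ± 0.13, adjusted p = 0.00112). Its late-minus-early difference was 1.03 ± 0.20 (adjusted p = 0.0274), with 69.8, 45.5 and 48.5 CPM in early tail fragments. A unigene described as CDC20 homolog B (TRINITY_DN7465_c0_g1) had a late-minus-early difference of 2.26 ± 0.42 (adjusted p = 0.0228) and no late call (log2 difference 0.44 ± 0.29, adjusted p = 0.314). Both of these differences were lost without day 0, 1, 7 or 10 and without the day block.

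The study concerned N6-methyladenosine (m6A), a mark on mRNA placed by METTL3 with METTL14 and read by YTH domain proteins. METTL3 (TRINITY_DN30538_c0_g1) had 11.2, 9.61 and 10.1 CPM in late head and 13.6, 12.2 and 9.92 CPM in late tail fragments, with overlap (log2 difference -0.20 ± 0.14, adjusted p = 0.342). The non-catalytic subunit (TRINITY_DN1857_c0_g1) was not called either (log2 difference -0.05 ± 0.13, adjusted p = 0.821). Of 10 m6A members 3 were lower (30%, against 16.0% of all unigenes), all readers. They were unigenes described as YTH family protein 2 (TRINITY_DN6087_c0_g1, log2 difference -0.52 ± 0.12, adjusted p = 0.0133), protein 1 (TRINITY_DN77690_c0_g1, log2 difference -0.45 ± 0.12, adjusted p = 0.0229) and protein 2 again (TRINITY_DN7930_c2_g1, log2 difference -0.29 ± 0.09, adjusted p = 0.0485). TRINITY_DN6087_c0_g1 had 13.04, 16.4 and 15.6 CPM in late head and 16.6, 23.8 and 24.99 CPM in late tail fragments, with each head library below each tail library. All 3 calls were lost without day 7, without day 10 and without the day block. With library totals, 5 members were higher and 0 lower, and with totals without the most abundant unigene 0 were called.

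Among other signalling genes, 4 of 25 BMP pathway members were higher (16%, against 8.44% of all unigenes) and 1 lower (4%, against 16.0%) late. Without the day block 0 were called. A unigene described as SMAD4 (TRINITY_DN31163_c0_g3), which carries BMP and related signals into the nucleus, had 13.1, 15.5 and 15.6 CPM in late head and 5.56, 9.17 and 10.9 CPM in late tail fragments (log2 difference 0.82 ± 0.16, adjusted p = 0.00799; lost without day 7). SMAD6/7-2 (TRINITY_DN28708_c0_g1), of the inhibitory SMADs, was higher by a log2 difference of 0.70 ± 0.13 (adjusted p = 0.00624). Both had lower late than early differences (late-minus-early log2 difference -1.38 ± 0.26 and -1.60 ± 0.27, adjusted p = 0.0233 and 0.0165), which were lost without day 0, day 7 or day 10. Of 10 FGF and EGF receptors 1 was higher (10%) and 4 lower (40%). Smed-egfr-5 (TRINITY_DN31661_c0_g1) was higher by a log2 difference of 0.89 ± 0.11 (adjusted p = 0.000936). A unigene described as FGF receptor 1 (TRINITY_DN9_c1_g1) had 6.04, 5.98 and 5.08 CPM in late head and 16.7, 13.1 and 13.2 CPM in late tail fragments (log2 difference -1.32 ± 0.15, adjusted p = 0.000507). Of 48 gap junction genes 14 were higher and 4 lower, 4 and 4 without day 7; innexin3 (TRINITY_DN4246_c0_g1) was higher by a log2 difference of 1.55 ± 0.32 (adjusted p = 0.00949; lost without day 7). Of 6 Hedgehog pathway members edgeR and DESeq2 called 0, and 1 had an unadjusted p under 0.05.

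Of 114 innate immunity and TRAF members, 32 were lower and 4 higher in late head fragments (median -0.21, and 0.43 with library totals, when 43 were higher and 9 lower). A TNF receptor-associated factor 3 (TRINITY_DN248_c1_g1), an adaptor of immune receptors, had 6.63, 12.1 and 10.02 CPM in late head and 23.5, 35.9 and 31.3 CPM in late tail fragments (log2 difference -1.68 ± 0.11, adjusted p = 9.71e-05). For general cell functions the calls are read beside 8.44% of all unigenes higher and 16.0% lower. Here 2 of 57 cytosolic chaperones were higher and 11 lower, and 2 of 23 ER folding genes higher and 4 lower. Further, 0 of 25 cytosolic ribosomal proteins were higher and 5 lower, 0 of 30 respiratory chain members higher and 3 lower, and 1 of 28 proteasome members higher and 1 lower. Of 300 mobile element unigenes 25 were higher (8.33%) and 19 lower (6.33%). The median of the ribosomal proteins was -0.16 and turned to 0.48 with library totals.

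Among named unigenes with a mean of at least 5 CPM in the higher fragment, the 6 highest late differences included Beta-arrestin-2 and neuropeptide Y prohormone-10 and prohormone-2. They also included a gelsolin-like protein (TRINITY_DN10882_c0_g1), of a family that cuts actin filaments, with 13.3, 12.6 and 8.72 CPM in late head and 0.794, 0.765 and 1.78 CPM in late tail fragments (log2 difference 3.33 ± 0.36, adjusted p = 0.000868). Another was a unigene described as Transmembrane protease serine 3 (TRINITY_DN182396_c0_g1; log2 difference 2.84 ± 0.37, adjusted p = 0.00803; lost without day 7). A unigene described as an RNA polymerase 19 kDa subunit (TRINITY_DN23945_c0_g3) had the highest of the 6, with head libraries that varied widely at 4.53, 1.15 and 14.7 CPM, against 0, 0 and 0.382 CPM in tail fragments. The lowest was a unigene described as 60S ribosomal protein L3 (TRINITY_DN4203_c0_g1), with 0.368, 0 and 0.191 CPM in late head and 6.42, 5.699 and 5.28 CPM in late tail fragments; its size of difference is not well determined, since 1 head library had no count. slc42a-2 (TRINITY_DN8114_c0_g3), described as an ammonium transporter of the Rh type, had 19.7, 32.9 and 38.6 CPM in late head and 106, 185 and 146 CPM in late tail fragments (log2 difference -2.28 ± 0.12, adjusted p = 8.19e-05).

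Further low in head fragments was a scavenger receptor cysteine-rich protein (TRINITY_DN111_c0_g1), with 499, 788 and 1041 CPM in late head and 2949, 3621 and 3405 CPM in late tail fragments (log2 difference -2.16 ± 0.20, adjusted p = 0.00652). The regulatory subunit of cAMP-dependent protein kinase (TRINITY_DN2939_c1_g1), which holds the kinase inactive until cAMP binds, had 3.53, 9.19 and 7.72 CPM in late head and 24.8, 29.7 and 28.6 CPM in late tail fragments (log2 difference -2.11 ± 0.22, adjusted p = 0.000986). Phospholipase DDHD1 (TRINITY_DN5022_c2_g1) was lower by a log2 difference of -2.01 ± 0.14 (adjusted p = 0.000106). In these 3 the head and tail libraries did not overlap.

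Most late differences were also called early. At days 0 to 3, 3116 unigenes were higher in head fragments (13.9%) and 3165 lower (14.2%). Of the late calls, 65.3% were also called early with the same sign, and of the early calls 56.9% were also called late with the same sign; the comparisons share no library. Among late-higher unigenes 1395 of 1888 were also higher early (73.9%), and among late-lower unigenes 2177 of 3584 were also lower early (60.7%). Across all unigenes tested, which are not independent replicates, late and early log2 differences had a Pearson correlation of 0.698. Of the early-higher unigenes 44.8% were higher late, and of the early-lower 68.8% were lower late; the difference between these shares was not tested. For unigenes called higher early, the median log2 ratio of head over tail was 1.24, 1.27 and 1.23 at days 0, 1 and 3, which are the libraries that chose them, and 0.75, 0.55 and 0.47 at days 5, 7 and 10. For those called lower early it was -0.91, -0.93 and -0.96, and then -0.88, -0.70 and -0.69.

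The direct test of late against early differences called 473 unigenes, 58 with a higher and 415 with a lower head-minus-tail difference late, and 3253 had an unadjusted p under 0.05. Of the 415, 357 had been higher in head fragments early; 189 were still higher late and 68 were lower late. In 292 of them the mean level was higher late than early in tail fragments and lower in head fragments, and in 120 it was higher late in both. Over all 415, the median log2 change of late over early levels was -0.15 in head and 1.16 in tail fragments. Of the 58, 46 had been lower in head fragments early, and 44 had a higher mean in head and a lower mean in tail fragments late than early. Over all 58, the median log2 changes were 0.50 in head and -0.90 in tail fragments. The count was 0 without day 7 (2405 with an unadjusted p under 0.05), 45 without day 0, 77 without day 10, 151 without day 1, 478 without day 3 and 828 without day 5, and 142 without the day block. DESeq2's test called 673 and a slope over log2(day + 1) 515.

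In the late-minus-early test, the 6 lowest named differences with at least 5 CPM in 1 of the groups were those of the unigenes that follow. A putative calcium-binding protein (TRINITY_DN13542_c0_g1) had 9.24, 9.02 and 7.49 CPM in late and 14.7, 15.2 and 11.04 CPM in early head fragments, against 1.08, 1.25 and 2.48 CPM in late and 0, 0 and 0.236 CPM in early tail fragments (late-minus-early log2 difference -5.01 ± 0.92, adjusted p = 0.0164). A cholinesterase (TRINITY_DN3871_c0_g1), of the enzymes that break down acetylcholine, had 2.798, 3.38 and 3.59 CPM in late head and 0.794, 1.81 and 2.86 CPM in late tail fragments (late-minus-early log2 difference -4.18 ± 0.65, adjusted p = 0.00936). Glycine receptor subunit alpha-2 (TRINITY_DN346_c3_g1), a ligand-gated chloride channel, had 2.31, 4.38 and 5.47 CPM in late tail and 0.3300, 0.063 and 0.552 CPM in early tail fragments (late-minus-early log2 difference -3.73 ± 0.56, adjusted p = 0.0108). Shaw (TRINITY_DN33158_c0_g1), a potassium channel, had 7.59, 7.39 and 6.23 CPM in late head and 1.52, 1.46 and 4.83 CPM in late tail fragments (late-minus-early log2 difference -3.48 ± 0.73, adjusted p = 0.0356). In each of these 4 the tail library of day 10 was the highest of the 6 tail libraries. The other 2, a Band 7 protein (TRINITY_DN5685_c0_g1) and Thioredoxin (TRINITY_DN5668_c0_g1), had differences of -3.86 ± 0.80 and -3.51 ± 0.48 (adjusted p = 0.0286 and 0.00860). As stated for all calls of this test, none of the 6 was called without day 7.

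**Figure D5:**
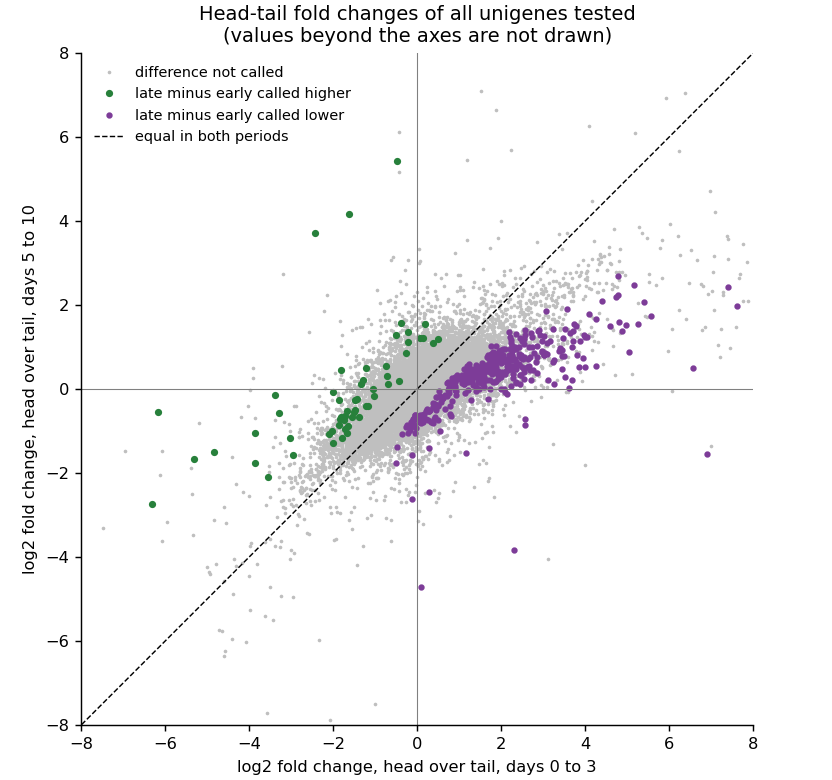
Log2 difference of head over tail fragments at days 5 to 10 (vertical axis) against that at days 0 to 3 (horizontal axis) for the 22352 unigenes with a value in both periods. Each point is 1 unigene, coloured where the late-minus-early test called it, and 36 unigenes lie beyond the axes, which end at 8. Points on the dashed line have equal differences in both periods, and unigenes called lower late by that test lie below it. Of all 415 of these, 357 were called higher in head fragments early and 189 were called higher late.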

How the data were processed

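Poly(A) mRNA of head and tail fragments was measured in 12 libraries, 1 per fragment and day. Per the submitters' processing notes, FastQC, fastp 0.20.0, Bowtie2 and RSEM were used. The authors deposited raw counts per unigene (the term of the file header) beside protein descriptions; the counts are whole numbers, so that RSEM estimates may have been rounded before deposit. The table holds 267235 unigenes, 22624 of them without a count in all 18 libraries, and 3 emptied lines; 18 other per-sample columns were not used.

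Library totals lay between 17547716 and 21229980 counts, so that 3 counts, used as the floor of detection, corresponded to between 0.105 and 0.247 TMM-scaled CPM; floors cover counting error only. A minimum of 1 CPM in 3 or more of the 12 libraries left 22361 unigenes to test, which held between 98.2 and 99.3% of the counts; 8115 have a usable name. Early fits gave values for 22352 of them. Names come from protein descriptions in the file.

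Head was compared with tail at days 5 to 10 by edgeR's quasi-likelihood test with TMM factors of the 12 libraries, robust fitting, day as block and Benjamini-Hochberg adjustment over all unigenes at 0.05. This leaves 2 residual degrees of freedom, and likewise at days 0 to 3. Late minus early differences were tested in 1 model of the 12 libraries, with 4. Errors after ± are SE, derived as the size of the log2 difference divided by the square root of the F statistic of edgeR's test. The pairing comes from the labelled day: deviations of same-day head and tail libraries correlated at 0.423, 0.099 and 0.291 on days 5, 7 and 10, and those of different days between -0.374 and 0.144, the highest being head of day 7 with tail of day 10. The fits were also run on simulated data, with 100 unigenes changed 2-fold and 100 changed 4-fold, each with a mean of at least 20 counts. With the right sign, the late fit found 57 and 95 of them, and the late-minus-early fit 32 and 71. Among the unigenes that were not changed, the late fit made 27 calls and the late-minus-early fit 11. In both fits these false calls were a larger share of all calls on the simulated data than the 0.05 set for the adjusted p. Alternatives were other scalings, DESeq2 1.42.0, the legacy fit of edgeR, other filters, no day block, each day left out, fits of 12 libraries or with trunk, and a slope over days. Fits were made in R 4.3.3 with edgeR 4.0.16, limma 3.58.1 and the package data.table, version 1.17.8. Summaries and figures used Python 3.11.15, numpy 2.4.6, pandas 2.3.3 and matplotlib 3.10.9.

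The 34 gene lists match protein names, and their members, like the members of this comparison, were chosen with earlier results of these data known. After matching, 221 list entries were removed on their names, a few of them after values were seen. Genes named are the 6 highest and 6 lowest late differences with a usable name, an adjusted p under 0.05, the same sign on 3 of 3 days and a mean of at least 5 CPM in the higher fragment; up to 2 called members of each list with the largest difference and the same sign on 3 of 3 days; the 6 highest and 6 lowest late minus early differences with at least 5 CPM in 1 of 4 groups; a panel of Wnt, frizzled, notum, sFRP, nou-darake, Hox, opsin, arrestin, Pax-6, six3, piwi, PCNA and m6A genes; and the unigene with the most counts. Exceptions are marked as picked after their values were seen. A few genes that this rule names are not reported here. Sequences of the unigenes were not used here.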

Additional observations from a re-analysis of the deposited data

Results flagged for a closer look

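The size of the head-tail difference was not the same late and early for 473 unigenes, by a test of the difference itself, and the values below are late minus early log2 differences of head over tail. All 473 calls were lost without day 7.

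Positive values, for genes with a less negative or a higher difference late, were 3.60 for wnt11-2, 2.13 for php-3, 3.68 for DjAbd-Ba, 3.25 for Sp5, 1.60 for axis inhibition protein B, 1.45 for the cAMP-dependent protein kinase regulatory subunit, 2.26 for CDC20 homolog B and 1.03 for Cyclin-dependent kinase 1-A. Among anterior genes the values were -2.69 for NOU-DARAKE, -2.58 for NDK-4, -2.10 for frizzled-5/8-4, -2.06 and -2.20 for the unigenes described as Frizzled-5, and -1.23 for sFRP-B, and Pax-6B had -3.48.

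Among other genes with a lower difference late, SMAD4 had -1.38, SMAD6/7-2 had -1.60 and innexin3 had -3.72. The calcium-binding protein had -5.01, Cholinesterase -4.18, the Band 7 protein -3.86, Glycine receptor alpha-2 -3.73, Thioredoxin -3.51 and the Shaw channel -3.48. Peptidase inhibitor 16 (TRINITY_DN807_c0_g1) had -1.11, with 8.36, 10.00 and 17.2 CPM in late head and 11.4, 20.8 and 30.7 CPM in late tail fragments, against 10.8, 12.7 and 7.96 CPM in early head and 8.91, 9.57 and 6.54 CPM in early tail fragments. Cilia genes with opposite signs in the periods were forkhead box J1-5 with -1.23, cilia- and flagella-associated protein 74 with -0.97 and Dynein axonemal heavy chain 5 (TRINITY_DN7650_c0_g1) with -0.70. The late call of the dynein was at the threshold (adjusted p = 0.04995 by edgeR) and was lost with each other scaling, in DESeq2, without a filter, with a filter at 5 CPM, without the day block, without day 7, without day 10 and with trunk.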

How the results depend on the processing

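The late comparison called 5472 unigenes and kept within 1.5 times of that under all alternatives run except library totals (12267), no day block (2712), an added minimum of 2-fold (1975) and day 7 left out (2396). With day 10 left out it called 3650, and with day 5 left out 5505. The early comparison called 6281, with 15189 under library totals and between 4517 and 5349 with a day left out. The test of late against early called 473, with 939 without a filter on low counts, 142 without the day block, and between 0 and 828 with a day left out. Of the calls, 34.5% were higher in late head fragments, against 92.7% with library totals, 71.5% with totals without the most abundant unigene and 53.4% without a filter. Of the 76 late calls of named unigenes that were followed through the alternatives, 8 turned positive under library totals. They were axis inhibition protein B (0.37), Glycogen synthase kinase-3 beta (0.0247), beta-catenin (0.0285), Dynein axonemal heavy chain 5 (0.31), cilia- and flagella-associated protein 74 (0.13), YTH family protein 2 (TRINITY_DN6087_c0_g1, 0.12), YTH family protein 1 (0.19) and 60S ribosomal protein L13a (0.33). Without the most abundant unigene, axis inhibition protein B was at 0.0055. Of 76 named late calls, 51 were also called without day 7, 64 without day 10, 74 without day 5 and 59 without the day block; of 28 named late minus early calls, 0, 7, 26 and 15, and without days 0, 1 and 3 5, 7 and 23. The replicate block is the day, and the fits without it called 2712, 4656 and 142 unigenes late, early and for the difference. Beyond the scaling, whose construction sets the direction of small differences, the cause of these changes was not tested. With 1 library per fragment and day, low counts such as those of genes near 3 counts a library leave the size of a difference poorly determined.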

Other observations

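Of the 15 unigenes called in both periods with opposite signs, 9 have no usable name. Beside the cilia genes, the named ones were Glutamine synthetase (TRINITY_DN1941_c0_g1), with log2 differences of head over tail of -0.35 late and 0.44 early, Polypyrimidine tract-binding protein 1 (TRINITY_DN2492_c0_g3), with -0.40 late and 0.49 early, and Junction plakoglobin (TRINITY_DN12460_c0_g1), a protein of cell junctions, with 0.55 late and -0.72 early. Junction plakoglobin had 9.76, 11.8 and 7.95 CPM in late head and 5.56, 7.99 and 6.49 CPM in late tail fragments, against 4.89, 7.26 and 6.91 CPM in early head and 12.04, 12.2 and 7.25 CPM in early tail fragments. Its late-minus-early difference was not called by edgeR's direct test (adjusted p = 0.0569). Among the unigenes without a name, TRINITY_DN386_c0_g1 and TRINITY_DN4194_c0_g1 were not called by that test either (adjusted p = 0.101 and 0.0831).

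The head libraries held counts for more unigenes than the tail libraries: 106827, 89635 and 98381 at days 5, 7 and 10 in head, against 81355, 72530 and 71640 in tail fragments. The share of counts taken by the most abundant unigene was larger in tail fragments on each of these days, and its part in these numbers was not tested.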
